A study of Mus musculus with 4 samples.

Results

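The comparison of ischemic with healthy penumbra, 6 h into a permanent block of the middle cerebral artery, rested on 2 of the 4 arrays of the series, chosen by their sample labels as the arrays that held penumbra. Each was a two-color array that carried RNA of ischemic penumbra in one dye and RNA of healthy penumbra in the other. Ischemic RNA was labelled with Cy5 on penumbra replicate 3 and with Cy3 on penumbra replicate 4, so the arrays formed a dye swap. The other 2 arrays held the ischemic and healthy core in the same layout. The mice were male C57BL/6J animals aged 9 weeks, the occlusion was made with an intraluminal filament under sevoflurane, and 1 µl of saline was given into the cerebral ventricle straight after it. Ischemic and healthy samples alike carry the label saline, so the injection is shared by both sides of the comparison. The series describes 3 mice per group with neurological grades of G1 and G2. Neither the labels nor the series text said whether their RNA was pooled, whether the arrays of a pair held different extracts, or whether healthy penumbra came from the opposite hemisphere or from other animals.

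The penumbra is the rim of tissue around an infarct in which blood flow is too low for normal function but cells are still alive for some hours. Its neurons are exposed to waves of depolarization, to glutamate and to misfolded protein, and are known to switch on activity-dependent and heat shock genes. Leukocytes and glia add chemokines and other signals as the lesion matures.

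The dye-swapped pair counted as 1 replicate, so ischemia itself had no replicate and calls were made by size. A feature, which is a gene symbol or an accession where no symbol was given, was called when its mean ischemic over healthy ratio reached 2-fold and each array showed 1.5-fold or more in that direction. A wider class took mean ratios from 1.5-fold upwards with at least 0.32 log2 on each array. Ratios are log2 values after normalization, relative to the bulk of the genes, and each error is the SD between the arrays (n = 2 arrays), and part of it is dye bias, whose sign turns between the swapped arrays. A scaling to 10 spike-in control transcripts would lower every ratio by 0.46, so that gene list medians below that size would turn negative. Signals are background-subtracted spot medians before normalization, and Cy5 was the brighter dye on both arrays, with median spot signals of 284 and 307 against 223 and 192 in Cy3. Overlap of a gene's signals between the tissues, or its absence, is judged on these values and so includes the dye difference. The share of all features without overlap is not given here. Spots well above background made up 76.5% to 79.4% in each dye, and 0 were saturated.

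Relative to the bulk of the genes, most genes had nearly the same level in ischemic and healthy penumbra. Nearly all large differences on that scale were increases, but not under the spike-in scaling. The normalization itself sets the bulk near equal levels, so it cannot show a shift shared by most genes. Of 24925 features measured, 60 were called higher in ischemic tissue (0.241%) and 1 lower (0.00401%), and 97.9% of all features lay within 0.5 log2 of equal levels. The wider class held 313 higher features (1.26%) and 22 lower ones (0.0883%). Agilent's processed signals, which are not offset at low intensity, gave 199 higher and 28 lower calls, while scaling to spike-ins called 29 higher and 40 lower. In the wider class these settings gave 800 higher and 251 lower, and 57 higher and 5389 lower. All 60 features called higher were well above background in both tissues on both arrays, and 7 of them reached 4-fold. Their SD between arrays had a median of 0.12 and a highest value of 0.31. Of the 61 called features 51 carried a gene symbol. Over all features, 30.3% lay above 0 on both arrays and the median ratio was -0.01, or -0.47 under the spike-in scaling. Of the 56 gene list medians, 22 changed sign under at least 1 alternative besides the spike-in scaling, and the largest of these was 0.12 in size.

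**Figure D1:**
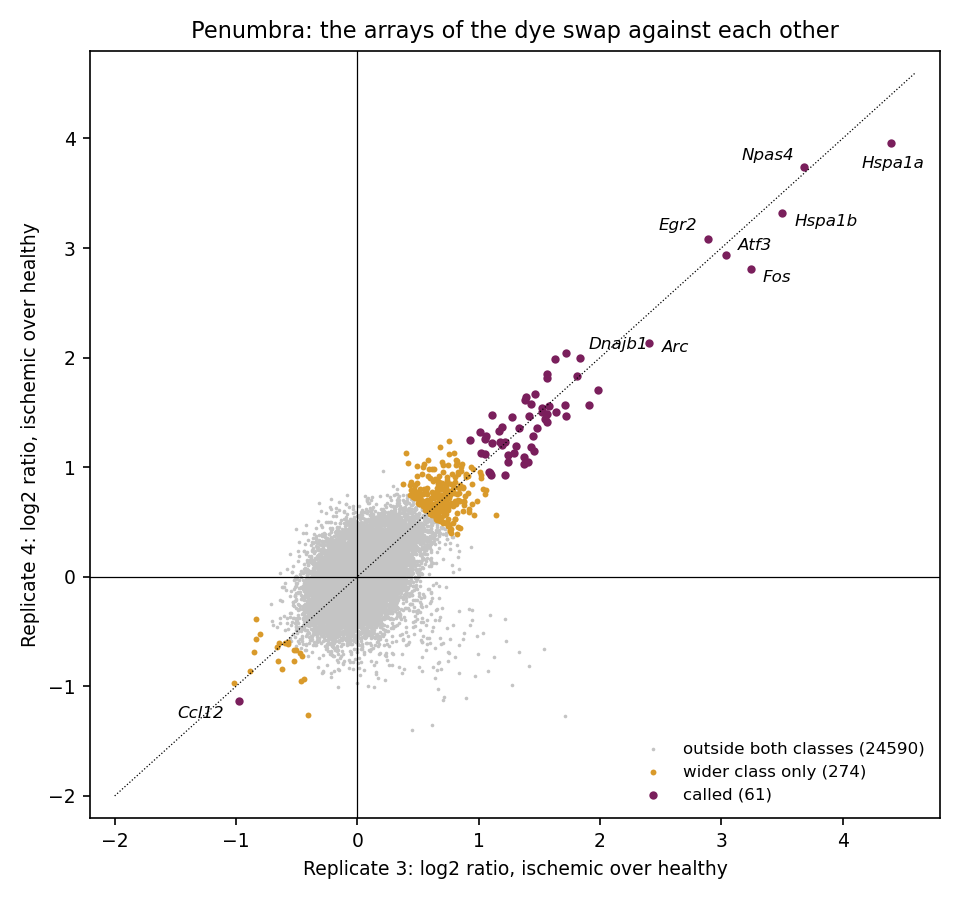
Log2 ratio of ischemic over healthy penumbra on replicate 3 (horizontal axis) and on replicate 4 (vertical axis) for the 24925 features measured, with 61 called features in purple and the rest of the wider class in orange; the dotted line marks equal ratios. The called features lie along that line up to 4.40 and 3.96 for Hspa1a, and Ccl12 stands alone among the calls on the lower side.

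Inducible heat shock genes gave the highest ratio of the experiment. Hspa1a encodes the stress-inducible Hsp70 chaperone, which refolds damaged protein. Its signal was 98559 in ischemic and 3164 in healthy penumbra on replicate 3, and 63829 and 8734 on replicate 4. Both ischemic signals lay far above both healthy signals, and the normalized ratio was 4.18 ± 0.31, or 18.1-fold. The neighbouring copy Hspa1b gave 11303 against 715 on replicate 3 and 8084.5 against 1491 on replicate 4. Again no healthy signal came near an ischemic one, and the ratio was 3.41 ± 0.13. The Hspa1a and Hspa1b transcripts are nearly identical, so their probes may each read both genes and their ratios are not separate evidence. Dnajb1, the Hsp40 partner that feeds clients to Hsp70, gave 77469.5 against 14073 on replicate 3 and 54466 against 30666 on replicate 4, with a ratio of 1.92 ± 0.12.

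The rest of the chaperone list moved less. Of 23 heat shock proteins and co-chaperones measured, 3 were called and 8 were in the wider class, against 0.241% and 1.26% of all features. The list median was 0.32, and 16 lay above 0 on both arrays, against 30.3% of all features. Hspb1, a small heat shock protein, had 0.81 ± 0.20, below the call. Dnajb4, another Hsp40, had 0.75 ± 0.02, the Hsp110 exchange factor Hsph1 0.65 ± 0.29 and the co-chaperone Bag3 0.62 ± 0.24. Lowest was Hspa12a, an atypical Hsp70 relative at -0.21.

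Both Hsp70 copies and 2 activity-regulated genes carried a motif of a stress- or activity-regulated factor close to their start, for which their promoters are shown. The sequences are the 150 bases directly upstream of a RefSeq start site on GRCm38.p6, read on the strand of the gene. Capitals mark GAANNTTC, the inverted repeat of a heat shock element, in Hspa1a (chr17:34972157-34972306, minus strand) and Hspa1b (chr17:34959239-34959388, minus strand). In Egr2 (chr10:67537719-67537868, plus strand, one of its annotated starts) they mark a CArG box, the site of serum response factor. In Pcsk1 (chr13:75089707-75089856, plus strand) they mark TGACGTCA, the cAMP response element.
Hspa1a: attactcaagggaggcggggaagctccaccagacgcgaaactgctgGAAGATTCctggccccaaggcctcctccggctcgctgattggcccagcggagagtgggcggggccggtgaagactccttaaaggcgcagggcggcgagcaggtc
Hspa1b: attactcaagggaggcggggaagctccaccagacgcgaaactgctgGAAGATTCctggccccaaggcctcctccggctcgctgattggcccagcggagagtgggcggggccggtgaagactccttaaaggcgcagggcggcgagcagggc
Egr2: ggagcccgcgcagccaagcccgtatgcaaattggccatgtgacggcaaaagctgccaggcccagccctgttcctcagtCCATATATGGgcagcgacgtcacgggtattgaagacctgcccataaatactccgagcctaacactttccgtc
Pcsk1: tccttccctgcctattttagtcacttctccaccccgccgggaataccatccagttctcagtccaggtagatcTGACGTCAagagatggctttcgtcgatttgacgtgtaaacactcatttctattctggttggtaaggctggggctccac
The heat shock repeat began at position -104 from the start in both Hsp70 copies, whose printed stretches were identical at 149 of 150 positions. The CArG box of Egr2 began at -72 and the cAMP response element of Pcsk1 at -78.

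Among all called genes these motifs were in a minority of promoters. RefSeq windows from 250 bases before to 50 after a start were at hand for 41 called genes and for 11067 genes in all, and both strands were searched, so matches of different motifs could share bases. GAANNTTC was in 12.2% of called promoters (Hspa1a, Hspa1b, Jun, Fosl2 and Bdnf) and in 7.38% of all. The near-identical Hspa1a and Hspa1b were counted separately, and the called Dnajb1 had 0 motif matches in its windows. TGACGTCA was in 7.32% (Mlf1, Pcsk1 and Btg2) against 3.18%, and the AP-1 site TGANTCA in 7.32% against 6.90%. The CArG box was in 4.88% (Egr2 and Rnd3) against 1.63%. The Egr site GCGNGGGCG was in 17.1% against 11.4%, and the NF-kappaB site in 19.5% against 8.46%. Called genes had 1.34 windows each and all genes 1.28, and a match is a description of the letters, not a bound site.

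Immediate early transcription factors, which neurons and glia induce within minutes of stimulation without new protein synthesis, formed the largest called group. Of 32 measured, 12 were called higher and 16 were in the wider class, against 0.241% and 1.26% of all features. The list median was 0.58, and 29 lay above 0 on both arrays, against 30.3% of all features. Npas4 is a neuron-restricted factor that answers calcium entry and shapes inhibitory synapses. Its signal was 2891.5 in ischemic and 120.5 in healthy tissue on replicate 3, and 2114.5 and 225.5 on replicate 4. The tissues did not overlap, and its ratio of 3.71 ± 0.04 (13.1-fold) was nearly the same on both arrays. Fos, the partner of Jun in the AP-1 complex, had signals of 14696.2 and 1132.8 on replicate 3 and 7683.2 and 2053.2 on replicate 4, with a ratio of 3.02 ± 0.31. Atf3, a stress factor of the same family, had 4011 and 329 on replicate 3 and 2723.5 and 604 on replicate 4, with a ratio of 2.99 ± 0.07. In both genes the lower ischemic signal was several times the higher healthy one.

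The Egr zinc finger factors differed among themselves in size. Egr2 had signals of 2716.5 and 233.6 on replicate 3 and 2070.8 and 388.9 on replicate 4. Its ratio of 2.99 ± 0.14 was the highest of the called Egr genes, followed by Egr4 at 1.84 ± 0.20 and Egr1 at 1.57 ± 0.09. Egr4 is expressed chiefly in neurons, while Egr1 is the broadly expressed member. Nr4a1, an orphan nuclear receptor induced by growth factors and depolarization, had 1.64 ± 0.10.

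The AP-1 genes covered a lower range. Fosb had 1.74 ± 0.24, Junb 1.34 ± 0.02 and Jun 1.22 ± 0.01, and for all of them both arrays passed the call. Fosl2 had 1.23 ± 0.26 by its brightest probe, but its lowest probe gave 0.47. Btg2, an antiproliferative cofactor, stood just inside the call at 1.02 ± 0.09, and its call ended with median centring and without penumbra replicate 3. The Krüppel-like zinc finger factors Klf4, Klf6 and Klf5 had 0.64 ± 0.01, 0.61 ± 0.02 and 0.59 ± 0.24, and the small Maf factor Maff had 0.76 ± 0.10, all in the wider class and below the call.

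**Figure D2:**
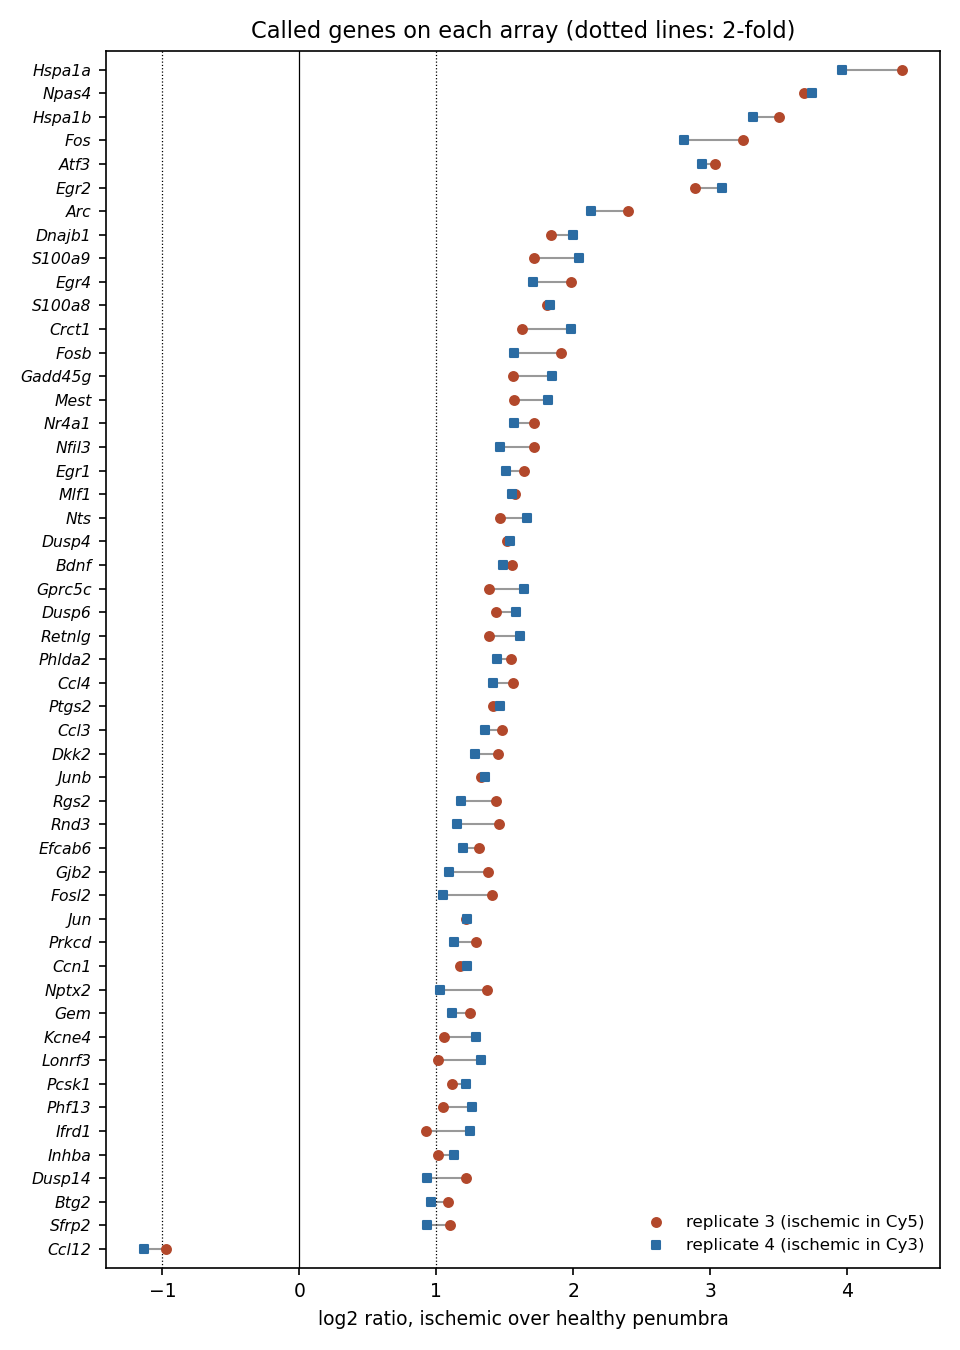
Log2 ratio of ischemic over healthy penumbra for the 51 called genes with a symbol on replicate 3 (circles) and on replicate 4 (squares), with dotted lines at 2-fold. The ratios run from 4.18 in the mean for Hspa1a to 1.02 for Sfrp2, and Ccl12 lies at -1.05.

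Effector genes of neuronal activity followed the same direction. Of 29 measured, 10 were called higher and 13 were in the wider class, against 0.241% and 1.26% of all features. The list median was 0.49, and 25 lay above 0 on both arrays, against 30.3% of all features. Arc, which drives removal of AMPA receptors from synapses, had signals of 41166 in ischemic and 5408 in healthy tissue on replicate 3, and 23743 and 11239.5 on replicate 4. The tissues did not overlap, and the ratio was 2.27 ± 0.19. Bdnf, the neurotrophin released at active synapses, had 7935.9 and 2020.6 on replicate 3 and 4625.4 and 3131.1 on replicate 4, with a ratio of 1.52 ± 0.05. Ptgs2, the inducible cyclooxygenase of cortical neurons, had 3078.5 and 860.5 on replicate 3 and 1980.5 and 1311 on replicate 4, with a ratio of 1.44 ± 0.03. Ischemic signals of both genes lay above both healthy ones. Prostaglandin synthesis as a list did not follow Ptgs2: it was the single call among 19 members, whose median was 0.09.

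Other called effectors act in secretion and in signalling at the membrane. Pcsk1, the prohormone convertase that cuts neuropeptide precursors, had 1.17 ± 0.08, and Nptx2, a secreted pentraxin that clusters AMPA receptors, had 1.20 ± 0.24. Inhba, a subunit of activin, had 1.07 ± 0.08, and the transcriptional regulator Ifrd1 had 1.09 ± 0.23. The call of Inhba ended with median centring, and that of Ifrd1 with median centring and without penumbra replicate 4. Rgs2, which shortens signalling by Gq, had 1.31 ± 0.18 with its lowest probe at 0.75, Gem, a small GTP-binding protein that restrains calcium channels, had 1.18 ± 0.09, and Rnd3, an antagonist of RhoA signalling, had 1.30 ± 0.21. These were the 3 calls among 25 G protein signalling regulators, whose median was 0.08 and turned to -0.02 without penumbra replicate 3 and to -0.001 with median centring.

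Feedback inhibitors of MAP kinases were also higher in part. Of 15 measured, 3 were called and 4 were in the wider class, against 0.241% and 1.26% of all features. The median was 0.41, and 12 lay above 0 on both arrays, against 30.3% of all features. Dusp4 and Dusp6 are phosphatases that inactivate ERK in the nucleus and in the cytoplasm. Dusp4 had signals of 771 and 170 on replicate 3 and 458 and 239 on replicate 4, with a ratio of 1.53 ± 0.01. Dusp6 had 1.51 ± 0.10. Dusp14 had 1.07 ± 0.20, a call that ended with median centring, with the mean over a gene's probes and without penumbra replicate 3. Dusp1, the phosphatase of p38 and JNK, had 1.14 on replicate 3 and 0.57 on replicate 4 and was not called. Spry2, an inhibitor of receptor tyrosine kinase signalling, was lowest of the list at -0.12.

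Single genes stood out from lists that otherwise hardly moved. Gadd45g, a stress-induced partner of MAP kinase kinase kinases, had signals of 62476.5 and 13864.5 on replicate 3 and 47138 and 29231.5 on replicate 4, with a ratio of 1.71 ± 0.20. It was the 1 call among 20 genes of growth arrest and p53, whose median was 0.12. Gadd45b had 0.77 ± 0.06 and Phlda1 0.84 ± 0.21, both in the wider class. Nfil3, a repressor that opposes clock genes of the Dbp family, had 1.59 ± 0.18. It was the 1 call among 18 clock genes, where Cry1 had 0.78 ± 0.13 and Per2 0.59 ± 0.27 but the median was 0.01, with a sign that turned with median centring and with the mean over probes. For Per2 the lowest probe gave -0.08.

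Among 22 neuropeptides Nts was the 1 call. Nts encodes neurotensin, a peptide that lowers body temperature when given into the brain. Its signals were 6808 and 1857 on replicate 3 and 4656 and 2772 on replicate 4, the tissues did not overlap, and the ratio was 1.56 ± 0.14. Cartpt, a peptide precursor of hypothalamus and other sites, had 0.77 ± 0.09, and Avp, the vasopressin precursor, 0.65 ± 0.01, both in the wider class. The list median was 0.15. The neuroprotective peptide PACAP, encoded by Adcyap1, had signals of 1705.5 and 999 on replicate 3 and 1027 and 1710.5 on replicate 4. Before normalization those signals overlapped between the tissues, with both Cy5 signals above both Cy3 signals. The normalized ratio of Adcyap1 was 0.39 on replicate 3 and 0.18 on replicate 4. Its mean of 0.28 ± 0.15 was outside both classes, and its receptor Adcyap1r1 had -0.16 ± 0.12. In the list of PACAP, VIP and their receptors Pcsk1 was the 1 call of 11, and the median was 0.06.

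Of the 51 called symbols, 12 belonged to none of the 56 gene lists. Mest, an imprinted gene of the alpha/beta hydrolase fold, had signals of 5679.5 in ischemic and 1438.5 in healthy tissue on replicate 3, and 4199 and 2228 on replicate 4. Its ratio of 1.69 ± 0.18 stood against 0.90 in the core. Crct1, a gene known from the outer layers of skin, had 397.5 and 59.5 on replicate 3 and 256 and 59 on replicate 4, with a ratio of 1.81 ± 0.25. Mlf1, a nucleocytoplasmic protein first found in a leukemia translocation, had 1.57 ± 0.01, and Gprc5c, an orphan receptor of a family induced by retinoic acid, 1.51 ± 0.18.

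Secreted and membrane proteins made up part of the remainder. Dkk2 and Sfrp2, secreted modulators of Wnt signalling, had 1.37 ± 0.12 and 1.02 ± 0.12. The call of Sfrp2 ended with median centring and without penumbra replicate 3. Kcne4, a potassium channel accessory subunit, had 1.17 ± 0.16. Phlda2, an imprinted growth regulator of the placenta, had 1.49 ± 0.07, with its lowest probe at 0.74. Lonrf3, a RING finger protein, had 1.17 ± 0.22, and the chromatin reader Phf13 1.16 ± 0.15, whose call ended with the mean over probes. Gjb2, a connexin of meninges and epithelia, had 1.23 ± 0.20 but 0.37 by its lowest probe, and the calcium-binding protein gene Efcab6 had 2.38-fold (SD 0.08 log2) but -0.06 log2 by its lowest probe. The mean over probes ended the calls of both Gjb2 and Efcab6, as well as that of Fosl2.

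Of 11 neutrophil markers 3 were called higher, against 0.241% of all features. S100a8 and S100a9 form calprotectin, the main cytosolic protein pair of neutrophils. S100a8 had signals of 1640 and 322 on replicate 3 and 1169.5 and 560.5 on replicate 4, with a ratio of 1.82 ± 0.01. S100a9 had 8152 and 1855 on replicate 3 and 7049 and 3252 on replicate 4, with a ratio of 1.88 ± 0.23. For both genes the ischemic signals lay above the healthy ones without overlap. Retnlg, a resistin-like protein of granulocytes, was 2.82-fold higher (SD 0.16 log2), and the decoy receptor Il1r2 0.63 ± 0.09. Of 11 markers measured 9 lay above 0 on both arrays, against 30.3% of all features, and lowest was Lcn2 at -0.12. The median over the 11 was 0.28, or 0.86 with Agilent's processed signals. Only 9 of the 11 were well above background in both tissues, and the median of those 9 was 0.57. Summed normalized signals of the list were 11977 and 14958 in ischemic against 4773 and 5065 in healthy tissue on replicates 3 and 4. Such sums weigh bright genes most, and S100a9 alone had ischemic signals of 8152 and 7049 before normalization. The sums thus largely repeat the called genes and do not show a rise across the list. Camp and Elane, which mark granules of neutrophils, were not well above background. In bulk tissue more cells of a type and more RNA per cell cannot be told apart.

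Marker lists of other blood and resident immune cells had 0 members in the wider class. Of 13 monocyte and macrophage markers 9 lay above 0 on both arrays, against 30.3% of all features, and 0 lay below 0 on both. Their median was 0.19. Summed normalized signals of this list were 12444 and 12880 in ischemic against 9672 and 9775 in healthy tissue on replicates 3 and 4. Lyz2, the lysozyme of myeloid cells, had 0.49 ± 0.07 and Pf4, a chemokine of platelets and border macrophages, 0.54 ± 0.10. Ccr2, Cybb and Arg1 were not well above background. Microglia markers had 0 of 19 in the wider class and a median of 0.05, whose sign turned with median centring and without penumbra replicate 3. Ctss, a lysosomal protease of microglia, had 0.30 ± 0.13, and Trem2, a lipid-sensing receptor, 0.30 ± 0.04. Lymphocyte markers had a median of -0.06 over 8 genes, or 0.003 with processed signals, and Cd3g, Ms4a1, Gzma, Gzmb and Prf1 were not well above background.

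Chemokine genes went in both directions. Ccl3 and Ccl4 attract monocytes and are made by activated microglia. Ccl4 had signals of 1336.5 in ischemic and 313 in healthy tissue on replicate 3, and 709 and 445 on replicate 4, with a ratio of 1.49 ± 0.10. Ccl3 had 1131.5 and 276.5 on replicate 3 and 664 and 434.5 on replicate 4, with a ratio of 1.42 ± 0.09. Both had no overlap between the tissues. Ccl6 at 0.75 ± 0.01 and Ccl7 at 0.61 ± 0.20 were in the wider class.

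Ccl12, a mouse relative of the monocyte attractant Ccl2, was the single lower call. Its signals were 363 in ischemic and 601.5 in healthy penumbra on replicate 3, and 200.5 and 940 on replicate 4. Both ischemic signals lay below both healthy ones, and the ratio was -1.05 ± 0.11, with -0.97 on replicate 3 and -1.13 on replicate 4. The call ended without penumbra replicate 4, because the ratio on replicate 3 was just short of 2-fold. Ccl2 itself had signals of 1062.7 and 745 on replicate 3 and 622.6 and 1331 on replicate 4, which overlapped, and its ratio was -0.02 ± 0.21. The 15 CC chemokines held 2 higher calls and 1 lower call with a median of 0.05, which turned to -0.01 with Agilent's processed signals. The 10 CXC, CX3C and XC chemokines had 0 in either class and a median of 0.02, or -0.01 without penumbra replicate 3.

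Cytokine and inflammatory signalling lists lay near the background. Of 25 cytokines and receptors only Il1r2 was in the wider class, and 12 lay below 0 on both arrays, against 32.4% of all features. The median was -0.02, or 0.006 with the mean over a gene's probes. Of 19 genes of the NF-kappaB system only Nfkbiz, a nuclear inhibitor-like cofactor induced by interleukin 1, was in the wider class at 0.64 ± 0.01, while the inhibitor Nfkbia had -0.12 ± 0.13. Among 20 genes of the JAK-STAT pathway Socs3, its feedback inhibitor, had 0.55 ± 0.10 and Stat3, the factor it restrains, 0.31 ± 0.11, with a list median of 0.13. Clec4d, a C-type lectin of myeloid cells, had 0.94 ± 0.26, while Gpr84, a myeloid receptor for fatty acids, had -0.54 ± 0.08 and was lower in ischemic tissue on both arrays, outside both classes.

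Markers of choroid plexus and ependyma were higher in ischemic penumbra without exception in direction. All 22 measured markers lay above 0 on both arrays, against 30.3% of all features, 9 were in the wider class and 0 were called. The median was 0.54 against -0.01 over all features, and 0.08 under the spike-in scaling. This and the other marker lists were chosen with earlier results of these data known, so their counts describe these data and are not independent support. Choroid plexus is the epithelium that makes cerebrospinal fluid in the ventricles. Ttr, the thyroid hormone carrier it secretes, had signals of 12471.5 in ischemic and 5677 in healthy tissue on replicate 3, and 7834 and 9396 on replicate 4. Before normalization these overlapped, because Cy5 was the brighter dye, and within each dye the ischemic signal was the higher one. The normalized ratio was 0.71 ± 0.03. Kcne2, a potassium channel subunit of its apical membrane, had the highest ratio of the list at 0.97 ± 0.02, and Calml4, Ecrg4 and Krt18 had 0.81 ± 0.10, 0.78 ± 0.02 and 0.77 ± 0.15. Lowest was the prolactin receptor gene Prlr at 0.04. Summed normalized signals of the list were 115356 and 112101 in ischemic against 75774 and 79073 in healthy tissue.

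Meningeal and perivascular fibroblast markers leaned the same way. Of 24 measured, 23 lay above 0 on both arrays, against 30.3% of all features, and 4 were in the wider class. The median was 0.27, and this list too was chosen with earlier results known. Dcn, a proteoglycan of collagen fibres, had 0.67 ± 0.26, Ogn, another proteoglycan, 0.64 ± 0.08, the sulfate transporter Slc13a4 0.64 ± 0.20, and the zinc finger factor Zic1 0.61 ± 0.07. Their summed signals overlapped between the tissues, at 191538 and 152515 in ischemic and 133770 and 161569 in healthy tissue. The SD between arrays had a median of 0.16 for features with a log2 intensity over 14, against 0.09 under 8. All markers of both lists were well above background in both tissues, so healthy penumbra held these transcripts too. Their part in other results was not tested.

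Among markers of brain regions those of thalamus and hypothalamus lay highest. Of 19 thalamic and hypothalamic markers, also chosen with earlier results known, 14 lay above 0 on both arrays, against 30.3% of all features. In this list 4 were in the wider class and 1 was called, with a median of 0.21. The called gene was Prkcd, a protein kinase C isoform that is abundant in thalamic relay neurons. Its signals were 3492 in ischemic and 1073 in healthy tissue on replicate 3, and 2122 and 1803.5 on replicate 4, without overlap, and its ratio was 1.21 ± 0.11. Tnnt1, a troponin gene also expressed in thalamus, had 0.93 ± 0.35 and the regulator of G protein signalling Rgs16 0.86 ± 0.22. Summed signals of the list were 28590 and 28022 in ischemic against 20027 and 20918 in healthy tissue, and Sim1, Plekhg1 and Six6 were not well above background. Whether the ischemic and the healthy piece were dissected at the same level was not tested.

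Striatal and general neuronal markers lay slightly on the lower side. Of 20 markers of striatal projection neurons 11 lay below 0 on both arrays and 4 above, with a median of -0.13. Lowest was Pde1b, a calcium-dependent phosphodiesterase of these neurons, at -0.39 ± 0.12. Of 16 pan-neuronal genes 7 lay below 0 on both arrays, 2 above, and 7 had unequal signs. Their median was -0.16, and 32.4% of all features lay below 0 on both arrays. Both list medians were below 0 on each array, but summed signals, which weigh bright genes most, disagreed between the arrays. Ischemic over healthy, these sums gave 1.21 on replicate 3 and 0.72 on replicate 4 for pan-neuronal genes, and 1.22 and 0.77 for striatal markers. The 23 cortical layer markers had a median of 0.03, with 8 above and 8 below 0 on both arrays, and turned to -0.07 with median centring and -0.02 without penumbra replicate 3. All of these markers were well above background in both tissues. Hippocampal markers had a median of 0.14, with Spink8, a protease inhibitor gene, in the lower wider class at -0.60 ± 0.00.

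**Figure D3:**
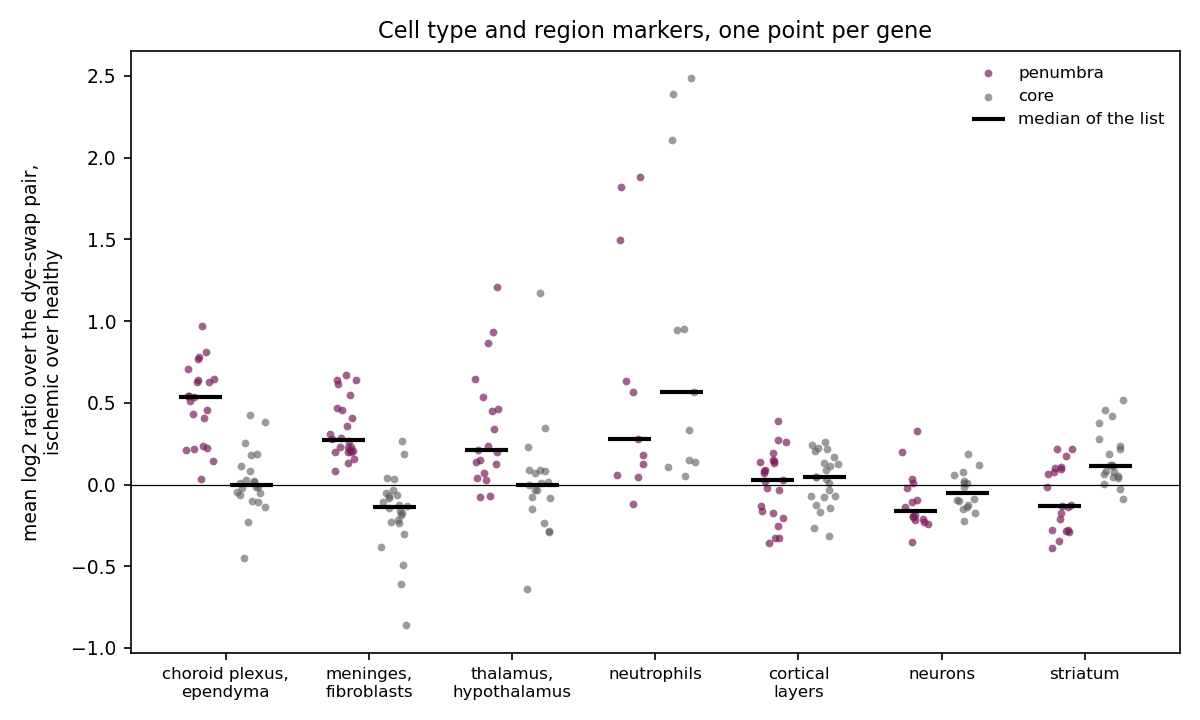
Mean log2 ratio of ischemic over healthy tissue for each measured marker of 7 cell type and region lists, in penumbra (purple) and core (grey), with a bar at each list median. The choroid plexus markers have medians of 0.54 in penumbra and -0.0008 in core, and the striatal markers -0.13 and 0.12.

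Glial and vascular lists stayed close to the background, apart from reactive astrocyte genes. Of those 27 genes 19 lay above 0 on both arrays, against 30.3% of all features, and the median was 0.23. In the wider class were 3, against 1.26% of all features, and 1 of the 3 was Ptgs2. Sphk1, the kinase that makes sphingosine 1-phosphate, had 0.71 ± 0.30. General astrocyte markers had a median of 0.05 that turned with median centring and without penumbra replicate 3. Oligodendrocyte and myelin genes had a median of 0.15, but bright myelin genes differed by dye: Mbp had 0.87 on replicate 3 and -0.57 on replicate 4. Endothelial junction genes had a median of 0.05 with 0 of 20 in the wider class, and this median turned to -0.02 both with median centring and without penumbra replicate 4. Among 16 endothelial activation genes the anticoagulant receptor Thbd had 0.75 ± 0.21 and Esm1, a secreted proteoglycan of angiogenic endothelium, 0.61 ± 0.00. Cnn1, a calponin of smooth muscle, had 0.74 ± 0.02, alone among 14 mural cell markers.

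Stress responses outside the chaperones were of modest size. Of 25 genes of endoplasmic reticulum and integrated stress 18 lay above 0 on both arrays, against 30.3% of all features. The median was 0.27, and 0 of these genes were in the wider class. Their highest member was Trib3, a target of the stress factor Chop, at 0.55. Cholesterol synthesis genes had 17 of 24 above 0 on both arrays, against 30.3% of all features, and a median of 0.26. Among them Hmgcs1, which makes the first committed precursor, had 0.44 ± 0.08 and the sterol oxidase Msmo1 0.45 ± 0.21. Hypoxia and glycolysis genes had a median of 0.26 on replicate 3 and -0.003 on replicate 4, with Adm, a vasodilator peptide, at 0.66 ± 0.09 and the glycoprotein hormone Stc2 at 0.75 ± 0.18. The glucose transporter Slc2a1 had 0.06 ± 0.51. Targets of Nrf2 and metallothioneins had 0 of 22 in the wider class, and genes of the Bcl2 family and caspases 0 of 23.

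Growth factors and matrix genes held a few higher members. Of 22 growth factors and neurotrophins 2 were called, Bdnf and Inhba, against 0.241% of all features. The median was 0.21, and 15 lay above 0 on both arrays, against 30.3% of all features. Gdf15, a stress-induced member of the TGF-beta family, had 0.59 ± 0.10. Among 24 matricellular and proteolysis genes Ccn1, a matricellular protein induced by serum and stretch, was called with signals of 2504.5 and 831.5 on replicate 3 and 1505 and 1171.5 on replicate 4. Its ratio was 1.20 ± 0.04. Adamts1, a protease of proteoglycans, had 0.97 ± 0.04, and collagens and laminins had 0 of 24 in the wider class.

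The lists of excitability and housekeeping genes had 0 calls, but the called channel subunit gene Kcne4 was in none of them. The medians were -0.11 for 25 genes of synaptic vesicle release, -0.10 for 19 sodium and calcium channel genes, -0.05 for 29 glutamate and GABA receptor genes and 0.004 for 31 potassium channel genes, a sign that turned with processed signals, with median centring, with the mean over a gene's probes and without penumbra replicate 3. Gria2, the AMPA receptor subunit that limits calcium entry, had -0.13 ± 0.04. Mitochondrial respiratory chain, proteasome and cytosolic ribosomal protein genes had medians of 0.02, -0.02 and 0.11 over 36, 31 and 36 members. The respiratory chain median changed sign with median centring and without penumbra replicate 3, and the proteasome median without penumbra replicate 3. Bright members carried large dye bias: Cox6a1, a cytochrome oxidase subunit, had 1.27 on replicate 3 and -0.99 on replicate 4.

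**Figure D4:**
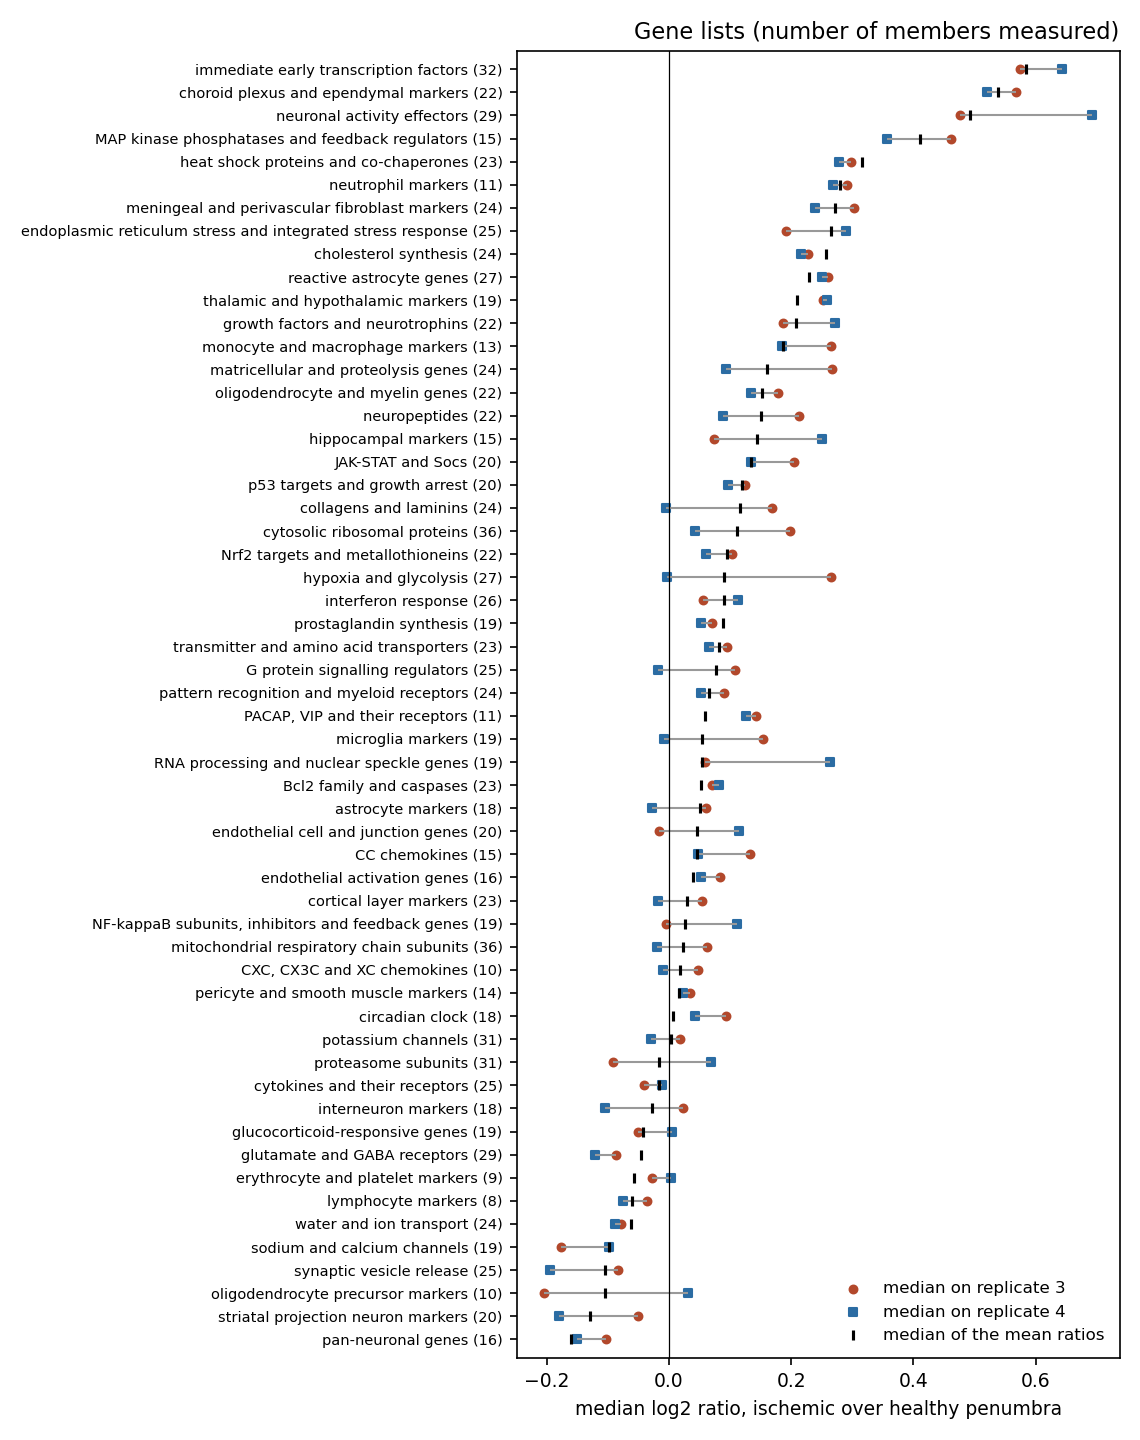
Median log2 ratio of ischemic over healthy penumbra for 56 gene lists, on replicate 3 (circles), on replicate 4 (squares) and of the mean ratios (bars), with the number of measured members in parentheses. Immediate early transcription factors are at the top at 0.58 and pan-neuronal genes at the bottom at -0.16.

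The wider class outside the calls held 253 higher and 21 lower features, of which 162 and 9 carried a symbol. Next to the call stood Arid5a, an RNA-binding stabilizer of inflammatory transcripts, at 1.00 ± 0.34, and Wnt16, a secreted Wnt ligand, at 0.98 ± 0.03. Tnfaip6, a hyaluronan-binding protein induced by inflammation, had 0.96 ± 0.08 and the Wnt receptor Fzd10 0.94 ± 0.17. Abhd2, a lipid hydrolase, had 0.92 ± 0.17, Shisa2, a modulator of Wnt and FGF receptors, 0.92 ± 0.01, the ubiquitin ligase Peli1 0.91 ± 0.03 and the F-box gene Fbxo33 0.90 ± 0.07. Just inside the call were Sfrp2 at 1.02 ± 0.12 and Btg2 at 1.02 ± 0.09, so the edge of the call separated genes with nearly the same ratios.

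On the lower side the differences were small. Ly6d, a GPI-anchored surface protein, had signals of 155.5 in ischemic and 294 in healthy tissue on replicate 3, and 92.5 and 433 on replicate 4. Its ratio of -0.99 ± 0.03 fell just short of a call. Oprk1, the kappa opioid receptor, had 431 and 644 on replicate 3 and 302.5 and 969.5 on replicate 4, with a ratio of -0.77 ± 0.12. In both genes the ischemic signals lay below the healthy ones without overlap. The lipoxygenase Alox12b had -0.71 ± 0.34 by its brightest probe, but -0.09 by its other probe. The protease inhibitor Serpinb8 had -0.70 ± 0.19, the complement protease C1ra -0.65 ± 0.18 and Fam117a -0.62 ± 0.03. The phospholipase Pla2g4e had -0.59 ± 0.03 and the GTPase-activating protein gene Elmod1 -0.59 ± 0.16.

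Probes printed 10 times per array gave a check of spot-to-spot precision within an array. Over 245 such probes the SD between spots had a median of 0.06 on replicate 3 and 0.06 on replicate 4. For Fos the 10 spots ran from 3.17 to 3.29 on replicate 3 and from 2.76 to 2.89 on replicate 4, so the gap between the arrays was wider than the spread of spots within either. Egr2 ran from 2.77 to 2.98 on replicate 3 and from 2.99 to 3.18 on replicate 4. For Jun the ranges were 1.17 to 1.33 and 1.17 to 1.29, which overlapped. Spots of one probe share a hybridization, so they carry no spread between animals.

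The core arrays show where penumbra differed from the tissue with the deepest loss of flow. Of the 60 features called higher in penumbra 56 were also in the wider class in core, and 45 were called higher there. A smaller mean ratio than in core was seen for 26 and a larger one for 34, against 47.3% of all features with a larger one. The 60 were picked by their penumbra ratios, which favours larger values in penumbra, so the split does not compare the regions evenly. A difference was called where the mean ratios lay at least 1 log2 apart and both penumbra arrays lay on one side of both core arrays. By that rule, 5 of 25246 features had a higher ratio in penumbra (0.0198%), 2 of them known by accession only, and 10 a lower one (0.0396%), with no test across animals. Hsp70, Npas4, Fos, Atf3 and Egr2 were not among them: Hspa1a had 4.18 in penumbra and 4.54 in core, and Npas4 3.71 and 4.19.

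Inflammatory genes made up most of the lower side. Ccl4 had 1.56 and 1.42 on the penumbra arrays against 3.60 and 3.57 on the core arrays, a difference of -2.10. Cxcl1, a neutrophil attractant, had -0.20 and -0.32 against 1.64 and 1.70, so a gene clearly higher in ischemic core was slightly lower in ischemic penumbra. Ccl2 differed by -1.69, Gpr84 by -1.67, Ccl3 by -1.42, Ccl7 by -1.05 and Cxcl2 by -1.001, where Cxcl2 was named after its values were seen. Hspb1 differed by -1.16 and Cd14, the co-receptor for bacterial lipopolysaccharide, by -1.12. The call of Cxcl2 was lost when core replicate 2 or penumbra replicate 3 was left out, and that of Ccl7 when penumbra replicate 4 was.

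Higher in penumbra were genes of particular brain sites. Prkcd had 1.29 and 1.13 on the penumbra arrays and -0.29 on both core arrays, a difference of 1.502. Avp had 0.64 and 0.65 against -0.61 and -0.67, a difference of 1.29. Mrgprf, an orphan receptor gene of the meningeal list, had 0.23 and 0.09 against -0.76 and -0.96, and its call was lost when core replicate 2 or penumbra replicate 3 was left out. Choroid plexus markers were all 22 above their core ratio, with a median difference of 0.45 and a core median of -0.0008. For meningeal markers 23 of 24 were above their core ratio with a median difference of 0.48, whereas 3 of 20 striatal markers were, against 47.3% of all features. Healthy core and healthy penumbra are different pieces of tissue, so these are differences of ratios, not of levels.

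**Figure D5:**
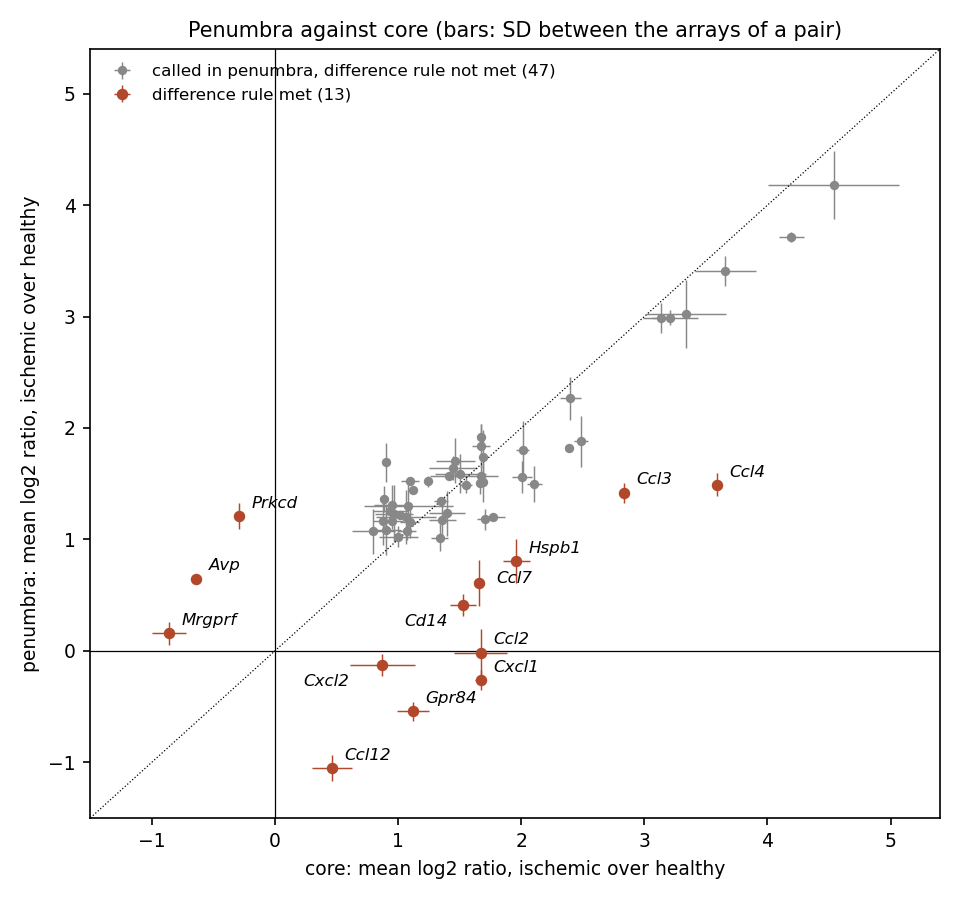
Mean log2 ratio of ischemic over healthy tissue in core (horizontal axis) and penumbra (vertical axis) for the genes called in penumbra (grey) and those meeting the difference rule (rust red), with bars for the SD between the arrays of a pair and a dotted line at equal ratios. Ccl4 lies at 1.49 in penumbra and 3.59 in core, and Prkcd at 1.21 and -0.29.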

How the data were processed

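RNA of ischemic and healthy penumbra was compared on 2 dye-swapped Agilent arrays of 4 on 1 slide. Spot intensity in Cy3 and Cy5 came from the deposited scanner files, per the file headers, which Agilent Feature Extraction 11.0.1.1 made according to the submitters' processing notes. Log10 ratios of the deposited series table equalled processed Cy5 over Cy3 to within 5e-06 (medians -0.0199 and -0.0115 on replicates 3 and 4); how animals were pooled is not given in the sources used here.

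Median spot signals went through normexp at an offset of 50 and loess within arrays in limma 3.58.1 (R 4.3.3), with control and outlier spots at weight 0. Ratios were turned to ischemic over healthy and converted to log2. Spots of a probe were averaged, the brightest probe stood for a gene, and features above background in 1 tissue or both, on each array, were kept, which left 24925 of 33269. Calls, the wider class and the difference from core were set by size, because the pair is 1 replicate. There was 1 slide, so slide batches could not be tested. Gene symbols were assigned by matching the accession of each probe to RefSeq genes, and 23374 of 41174 probes had such a match.

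Named genes were called features with a symbol, the highest and lowest of the wider class, called and wider members of each list (or the brightest), and the largest differences from core. The 56 lists, the members and the rules were chosen with earlier results of these data known. Alternatives were other background corrections, median centring, spike-in scaling, other filters and probe rules, each array left out, and limma over arrays.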

Additional observations from a re-analysis of the deposited data

Results flagged for a closer look

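The 222 genes looked at here were the named genes and the remaining gene with a symbol that met the difference rule, Cxcl2. Listed are those with both penumbra arrays on one side of 0 and both core arrays on the other, as differences of the mean log2 ratios, penumbra minus core. In none of them was the difference tested. The ratio was above 0 in penumbra and below 0 in core for 10 of them. Prkcd differed by 1.502 and Avp by 1.29, and both belong to the thalamic and hypothalamic markers. Of the meningeal list, Mrgprf differed by 1.02, Slc13a4 by 0.77, Zic1 by 0.76 and Ogn by 0.71. Cartpt, a hypothalamic peptide precursor among other sites, differed by 0.89, and Sostdc1, a secreted BMP antagonist of the choroid plexus list, by 0.86. Gpr17, a receptor of oligodendrocyte precursors, differed by 0.49, and the calcium buffer gene Calb1 by 0.0865 with ratios close to 0 in both regions. The opposite order held for 6 genes, 4 of them of inflammation: Cxcl1 at -1.93, Gpr84 at -1.67, Ccl12 at -1.52 and Cxcl2 at -1.001. The B cell receptor component Cd79b had -0.26 and the hemoglobin gene Hba-a1 -0.21. Each region was 1 dye-swapped pair from 1 slide, and the part of dissection in these values was not tested.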

How the results depend on the processing

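Counts of calls moved with the background correction and the scaling. Against 60 higher and 1 lower, Agilent's processed signals called 199 and 28, normexp with offset 0 called 109 and 6, median centring 55 and 2, and the spike-in scaling 29 and 40. In the wider class, against 313 and 22, these settings gave 800 and 251, 563 and 83, 239 and 36, and 57 and 5389. All 60 called features were kept by processed signals and by offset 0, 54 by median centring and 29 by the spike-in scaling, which ended the calls of Ccl3, Jun, Junb, Prkcd, Ptgs2 and Rgs2 among others. Leaving out an array gave 75 to 77 higher and 1 to 11 lower calls, 415 to 423 higher and 28 to 225 lower in the wider class, and 8 to 23 higher and 12 to 17 lower differences from core. The cause of these moves was not tested. The filters on dim probes and the kept outlier spots left 60 and 1, and the mean over a gene's probes 55 and 1. With limma over the 2 arrays, whose p-values measure only the spread between arrays, 60 and 1 had an adjusted p-value under 0.05 and 2-fold. That fit used the same arrays and the same 2-fold limit as the call, so its equal counts are not separate support. Of 115 named genes in either class, 0 changed sign under the alternatives run for single genes. Both classes required the same direction on each array, so leaving out an array could not turn a sign. Nor could the spike-in scaling, which lowers ratios by less than the smallest mean ratio of the higher class. No paired analysis was possible because the core and penumbra arrays share no replicate number and each pair is 1 replicate. Dim healthy signals limit the ratios of Crct1, Phlda2 and Dkk2, and the number of arrays limits the precision.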
